A study of Peromyscus polionotus with 11 samples.

Results

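Cd24a encodes CD24, a small and heavily glycosylated protein held on the outer cell surface by a glycosylphosphatidylinositol (GPI) anchor. The account given here covers its signal in 2 forebrain nuclei of the oldfield mouse (Peromyscus polionotus) kept in short or long days. Cd24a is 1 of 12393 genes named alone by at least 1 probe set in the platform annotation. All probe sets with Cd24a as their only symbol were taken, which gave 3 of the 22626 that are not controls: 1437502_x_at, 1448182_a_at and 1416034_at. The gene was singled out because earlier results of these data placed it among the largest differences between day lengths. Its day length differences are therefore given as a description and were not tested.

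Biotin-labelled total RNA from micropunched tissue was read on 11 arrays whose probes were designed for the house mouse. The arrays held 2 short-day and 3 long-day samples of the bed nucleus of the stria terminalis, and 3 short-day and 3 long-day samples of the medial preoptic area. Long-day samples are numbered 1 to 3 and short-day samples 4 to 6 in the labels, with no bed nucleus sample 6. The design text calls the samples independent, and the labels give no genotype, sex, age, or length of exposure to the day lengths.

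CD24 sits in lipid rafts and has no cytoplasmic domain, so it signals through partners such as Src family kinases. In the immune system it is a ligand of P-selectin and of the inhibitory receptor Siglec-G of the mouse (Siglec-10 in humans), and in nervous tissue it binds the adhesion molecules L1 and contactin-2. In the adult mouse brain CD24 is known as a surface marker of migrating immature neurons and of ependymal cells. Outside the brain it marks B cells and neutrophils.

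Over all probe sets, array 6, a short-day sample of the medial preoptic area, lay furthest out, at 31.2 on a first principal component that held 23.2% of the variance. Long-day bed nucleus arrays 1 and 2 lay far out on the other side, at -25.4 and -19.3. The remaining arrays lay between -7.57 and 6.63. The medial preoptic day length difference of each Cd24a probe set is given with and without array 6. So are the nucleus difference and the interaction of the brightest Cd24a probe set. Correlations between probe sets are given with array 6 only. The same holds for the sums of the gene lists and their counts of higher and lower members.

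The 3 probe sets read the gene at very different signal, and probe sets were not ranked against each other because each has its own affinity. The intensities are in arbitrary units, and the median intensity of every array was 19. Probe set 1437502_x_at lay far above that median on all 11 arrays, between the 93.2 and 98.4 percentile of its array. Probe set 1448182_a_at lay above it on 1 long-day array of each nucleus and below it elsewhere, and 1416034_at lay below it on all 11 arrays. By the manufacturer's naming, the ending _x_at marks a set in which some probes may match other transcripts, and _a_at marks one that matches alternative transcripts of a gene. The annotation gives 1448182_a_at and 1416034_at the same reference transcript and gives none for 1437502_x_at.

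In the bed nucleus, 1437502_x_at read 201 and 184 on the short-day arrays 4 and 5, against 813, 474 and 857 on the long-day arrays 1, 2 and 3. Both short-day arrays were lower than every long-day array, and the groups did not overlap. The mean intensity was 193 ± 12 in short days (SD, n = 2) and 715 ± 210 in long days (SD, n = 3), a log2 difference of -1.85 ± 0.27 (SE), or 3.59-fold lower in short days. In bulk tissue, fewer cells of a type and less RNA per cell cannot be told apart.

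The same probe set read, in the medial preoptic area, 137, 128 and 210 on the short-day arrays 4, 5 and 6, against 470, 509 and 259 on the long-day arrays 1, 2 and 3. Again every short-day array was lower than every long-day array, with the closest values on short-day array 6 and long-day array 3. The mean intensity was 158 ± 45.0 in short days and 413 ± 134 in long days (SD, n = 3 each), a log2 difference of -1.36 ± 0.24 (SE), or 2.56-fold lower in short days. Without short-day array 6 the difference was -1.58.

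Probe set 1448182_a_at showed the same order at low signal. In the bed nucleus it read 9 and 10 in short days, against 21, 17 and 18 in long days. In the medial preoptic area it read 8, 8 and 10 in short days, against 20, 12 and 14 in long days. The groups did not overlap in either nucleus. The log2 differences were -0.97 ± 0.18 in the bed nucleus and -0.80 ± 0.16 in the medial preoptic area (SE). With a pseudocount of 8 added to each intensity they were -0.61 and -0.47 in the same order, so no fold is given. Its short-day values were among the dimmest of their arrays, at the 1.09 to 6.72 percentile, where a step of 1 unit is large. With each intensity moved by the most that rounding to whole numbers allows, the difference lay between -1.09 and -0.86 in the bed nucleus and between -0.93 and -0.67 in the medial preoptic area. Without array 6 the medial preoptic difference was -0.90.

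Probe set 1416034_at did not follow this order. It read 11 and 15 in short days, against 14, 12 and 15 in long days, in the bed nucleus, and 12, 13 and 17 in short days, against 13, 13 and 15 in long days, in the medial preoptic area. The groups overlapped in both nuclei. The log2 differences were -0.08 ± 0.17 in the bed nucleus and 0.02 ± 0.15 in the medial preoptic area (SE). Rounding alone allows either sign in both nuclei, from -0.19 to 0.03 in the bed nucleus and from -0.08 to 0.13 in the medial preoptic area. Without array 6 the medial preoptic value was -0.13.

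**Figure D1:**
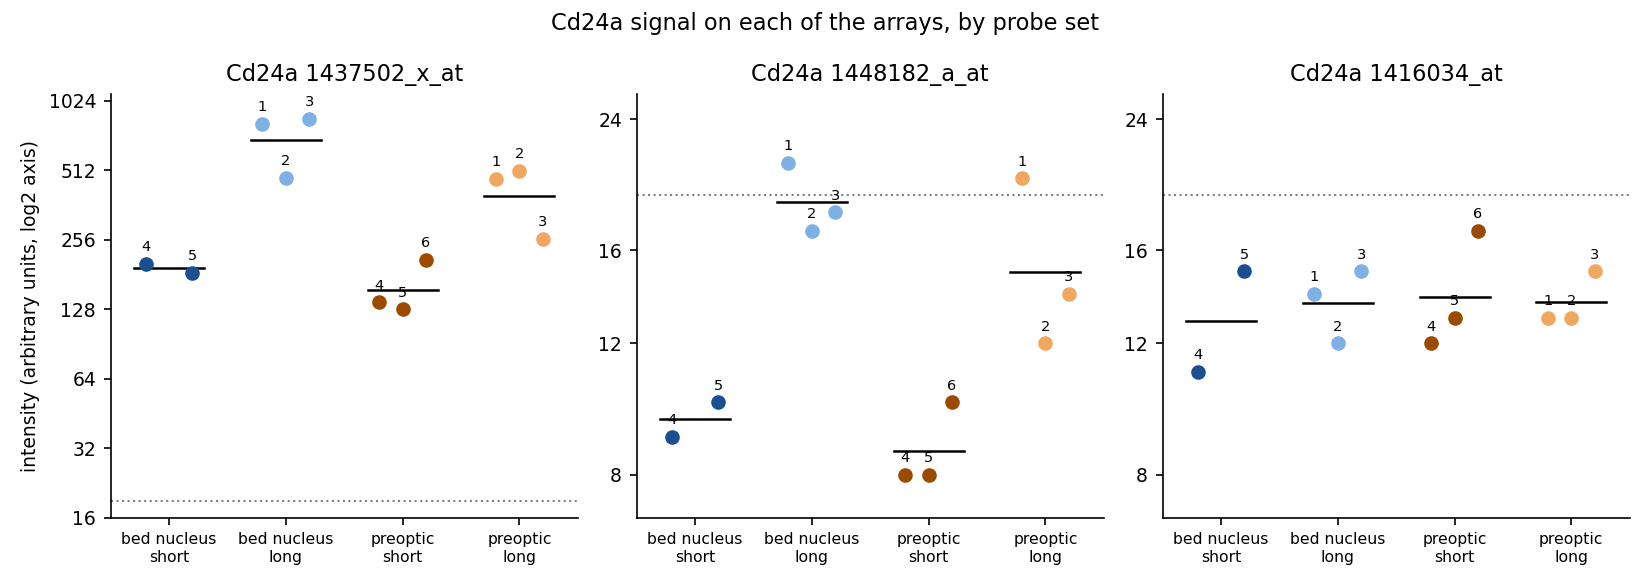
Intensity of each Cd24a probe set on the 11 arrays (log2 axis, a separate scale for 1437502_x_at). Points are arrays with their sample numbers, horizontal bars are group means of log2 intensity, and the dotted line is the array median of 19. In 1437502_x_at and 1448182_a_at every short-day array lies below every long-day array of its nucleus, and in 1416034_at the groups overlap.

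As background for the groups that did not overlap, all short-day arrays were lower than all long-day arrays in 13.5% of all probe sets in the bed nucleus, in 2.55% in the medial preoptic area and in 0.296% in both nuclei (67 of 22626). Of the 3 Cd24a probe sets, 2 were among these 67, and nothing is read from that share because the gene was chosen on this contrast. In size, 1437502_x_at had the lowest value of all probe sets in the medial preoptic area and the 3rd lowest in the bed nucleus. Probe set 1448182_a_at ranked 8th and 15th from the lowest in the same order of nuclei. These ranks describe the values the gene was chosen for.

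The probe sets of Cd24a differed widely among themselves. Averaged over both nuclei, the short minus long day difference was -1.60 ± 0.18 for 1437502_x_at, -0.88 ± 0.12 for 1448182_a_at and -0.03 ± 0.12 for 1416034_at (SE). The spread from the lowest to the highest was 1.57, against a median of 0.21 over the 1191 genes with 3 probe sets of a single symbol. Its lower end is a value the gene was chosen for. Its upper end comes from a probe set below the array median on all 11 arrays, and whether 1416034_at lay above background was not tested. Across the 11 arrays the log2 intensities of 1437502_x_at and 1448182_a_at had a Pearson correlation of 0.91. The value was 0.13 between 1437502_x_at and 1416034_at, and 0.17 between 1448182_a_at and 1416034_at. Once each array was set against its own group mean, the correlation of the first pair was 0.37. For log2 intensity without that step, the median of the 3 correlations between Cd24a probe sets was 0.17. The same value had a median of 0.03 over the 1191 genes with 3 probe sets.

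Arrays of the same group also varied more at 1437502_x_at than at most probe sets. Its SD within groups was 0.43 on the log2 scale, against a median of 0.16 for the 373 other probe sets as bright, of which 10 had a larger SD. The within-group SD was 0.24 for 1448182_a_at and 0.21 for 1416034_at.

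**Figure D2:**
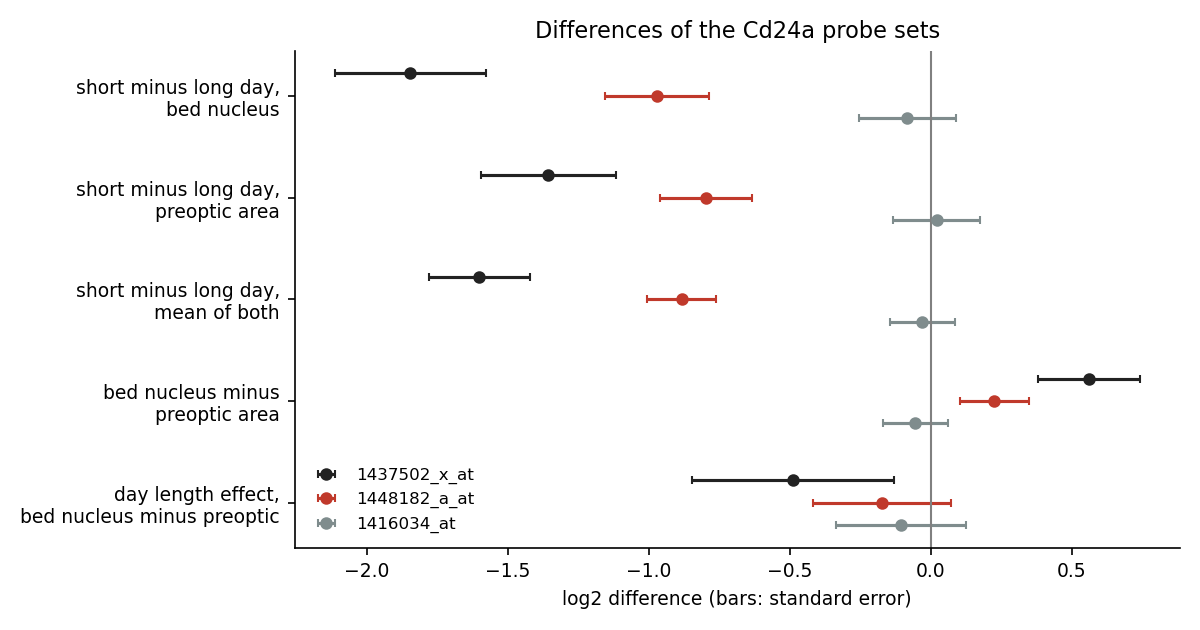
Log2 differences of the 3 Cd24a probe sets (horizontal axis) for 5 contrasts. Points are the estimates of the linear model and bars are their standard errors. The day length differences of 1437502_x_at and 1448182_a_at lie between -1.85 and -0.80, and those of 1416034_at lie at -0.08 to 0.02.

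The nuclei were compared next, a contrast on which the gene had not been chosen. At 1437502_x_at the order of the groups from high to low was long-day bed nucleus, long-day medial preoptic area, short-day bed nucleus and short-day medial preoptic area. The long-day groups of the nuclei overlapped, at 474 to 857 and 259 to 509, and so did the short-day groups, at 184 to 201 and 128 to 210. The groups in the middle of the order, the long-day medial preoptic area and the short-day bed nucleus, did not overlap. They also differ in day length, on which the gene was chosen. Probe set 1448182_a_at had the same order of groups and the same overlaps.

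With day length balanced, the bed nucleus minus medial preoptic area difference of 1437502_x_at was 0.56 ± 0.18 (SE, 95% interval 0.19 to 0.94), and it did not pass the threshold of 0.05 (adjusted p = 0.167, limma). An exact two-sided permutation of the nuclei within each day length gave p = 0.055, where the smallest possible value over the 200 arrangements is 0.005. The difference was 0.32 ± 0.27 in short days and 0.80 ± 0.24 in long days. Each of these shares its groups with day length differences the gene was chosen for, and is given as a description. Without array 6 the balanced difference was 0.67 (adjusted p = 0.0721, limma). For 1448182_a_at the difference was 0.23 ± 0.12 (adjusted p = 0.492, limma) and for 1416034_at it was -0.06 ± 0.12 (adjusted p = 0.904, limma). None of the 3 probe sets passed, beside 1.03% of all probe sets, and 1 of the 3, 1437502_x_at, had an unadjusted p under 0.05 (0.0054, limma), beside 11.9% of all probe sets.

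Whether the day length difference itself differed between the nuclei was tested as an interaction. Both of its terms are values the gene was chosen for, and the p-values and intervals do not allow for that choice. The bed nucleus effect minus the medial preoptic effect was -0.49 ± 0.36 for 1437502_x_at (95% interval -1.24 to 0.26, adjusted p = 0.760, limma), and -0.27 without array 6. It was -0.17 ± 0.25 for 1448182_a_at (adjusted p = 0.892) and -0.10 ± 0.23 for 1416034_at (adjusted p = 0.939). No Cd24a probe set passed or had an unadjusted p under 0.05, beside 0% of all probe sets past the adjusted threshold and 8.34% at the unadjusted one. The interval for 1437502_x_at still holds differences of more than 1 on the log2 scale.

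Genes with a pattern like that of Cd24a were sought among 10291 probe sets of other single-symbol genes with a mean above the array median. The measure was the Pearson correlation of log2 intensity over the 11 arrays, given as a description. The 6 most like 1437502_x_at were Tiam1, an activator of the GTPase Rac (r = 0.93), Camk1, a calcium and calmodulin-dependent protein kinase (0.91), Matn2, the extracellular matrix protein matrilin 2 (0.88), Fbxl8, an F-box protein (0.87), 2810025M15Rik (0.86) and Serf2 (0.86). The 6 most like 1448182_a_at were Pyroxd1, an oxidoreductase (0.88), Camk1 (0.88), Tmem158, a membrane protein (0.87), Unc93b1, which carries Toll-like receptors to endosomes (0.87), Sptlc2, a subunit of the enzyme that starts sphingolipid synthesis (0.86), and Gabrd, the delta subunit of the GABA-A receptor (0.86). Camk1 was the single gene named for both.

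Camk1 read 78 and 75 on the short-day arrays and 95, 84 and 86 on the long-day arrays of the bed nucleus. In the medial preoptic area it read 72, 76 and 78 in short days and 91, 89 and 80 in long days. Its groups did not overlap in either nucleus, as in 0.296% of all probe sets, and its choice for likeness to Cd24a favours that order. Camk1 did not pass between day lengths in the bed nucleus (adjusted p = 0.554, limma) or on average (adjusted p = 0.523, limma). Its log2 differences were -0.21 in the bed nucleus and -0.20 in the medial preoptic area, far smaller than those of Cd24a, so the likeness is one of order and not of size. Tiam1 read 36 and 34 in short days and 48, 44 and 45 in long days in the bed nucleus. In the medial preoptic area it read 31, 35 and 34 in short days and 41, 43 and 33 in long days. There its groups overlapped, through long-day array 3, which was also the lowest long-day array of 1437502_x_at.

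Correlations of this height were not limited to the probe sets with a day length pattern. For 1416034_at the highest was 0.92, with Ap3s2, an adaptor protein subunit, and 20 probe sets exceeded 0.8, against 22 for 1437502_x_at and 17 for 1448182_a_at. Further probe sets of the same genes were less like Cd24a. The other probe set of Tiam1 had r = 0.18 with 1437502_x_at, that of Camk1 0.39 and that of Matn2 -0.24. After group means were taken off, the 6 most like 1437502_x_at were Rab12, a small GTPase (0.95), Vps37c, a subunit of the ESCRT-I sorting complex (0.94), Prrx1, a homeobox factor (0.93), Ces2a, a carboxylesterase (0.93), Zbtb12, a zinc finger protein (0.92), and Hdac1, a histone deacetylase (0.92). None of these was among the genes most like it over all arrays.

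**Figure D3:**
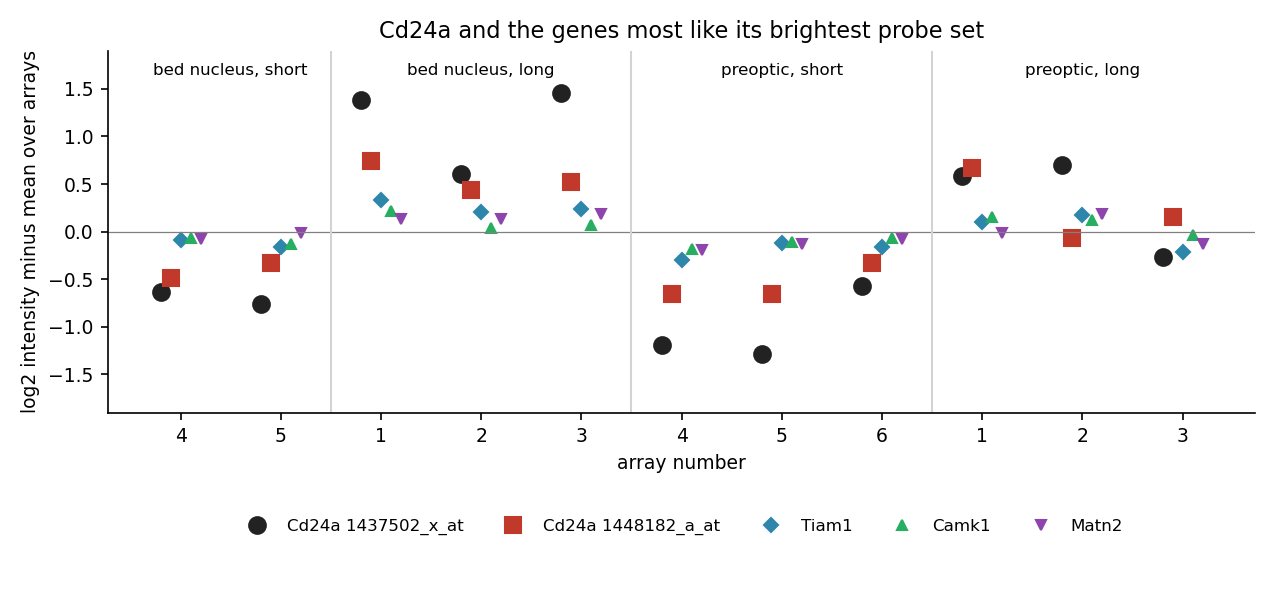
Log2 intensity minus the mean over the 11 arrays (vertical axis) for 2 Cd24a probe sets and the 3 genes most like 1437502_x_at, by array number within each group. Camk1, Tiam1 and Matn2 lie on the same side as Cd24a on most arrays, with differences several times smaller.

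Genes that act with CD24 were taken from 3 lists, and each gene was read by its brightest probe set on average. Of 64 listed genes 50 were measured under a single symbol. Between day lengths, limma called 0 of the 50 in the bed nucleus, beside 0.0442% of all probe sets, 0 in the medial preoptic area, beside 0% of all probe sets, and 0 in the average of the nuclei, beside 0.0133%. At an unadjusted p under 0.05 there were 12 in the bed nucleus, 1 in the medial preoptic area and 5 in the average. Over all probe sets these shares were 12.7% in the bed nucleus, 3.5% in the medial preoptic area and 9.02% in the average.

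Of the binding partners and signalling genes 14 of 19 were measured. In the bed nucleus 7 were higher and 7 lower in short days (median log2 difference -0.02, against -0.01 over all probe sets), and in the medial preoptic area the count was 8 higher against 6 lower (median 0.01, against 0). Fyn, a Src family kinase that works beside CD24 in rafts, read 133 and 89 in short days and 142, 156 and 140 in long days in the bed nucleus. Its groups overlapped in the medial preoptic area, at 151, 113 and 109 in short days and 138, 154 and 135 in long days. Its difference averaged over the nuclei was -0.32 ± 0.12 (SE, adjusted p = 0.459, limma) and did not pass. Itga4, an integrin subunit, was at 0.21 and Selp, which encodes P-selectin, at 0.20 in the same average, both at or below the array median on nearly all arrays.

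The same list held the genes that passed between the nuclei. L1cam, which encodes the CD24 partner L1, read 49 and 51 in the short-day and 50, 39 and 38 in the long-day bed nucleus. In the medial preoptic area it read 58, 72 and 70 in short days and 59, 89 and 61 in long days, and all bed nucleus arrays were lower. The log2 difference was -0.56 ± 0.12 (adjusted p = 0.0262, limma), and a further, dimmer probe set of L1cam gave -0.25 (adjusted p = 0.458, limma). Flot2, a raft scaffold protein, read 304 and 312 in the short-day and 447, 269 and 433 in the long-day bed nucleus, against 610, 868 and 478 in the short-day and 499, 1034 and 478 in the long-day medial preoptic area. The difference was -0.89 ± 0.19 (adjusted p = 0.0237, limma), on a probe set ending in _x_at. A further Flot2 probe set gave -0.02. Of 50 genes, 2 passed, both lower in the bed nucleus, beside 0.566% of all probe sets called lower. The count was 0 to 3 when single arrays were left out.

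GPI anchor synthesis and attachment genes build the lipid that holds CD24 in the membrane, and 19 of 22 were measured. In short days 10 were higher and 9 lower in the bed nucleus (median 0.02), while the medial preoptic area had 12 higher and 7 lower (median 0.03). The members with the smallest unadjusted p were Pigh, a subunit of the enzyme of the first step (0.28 ± 0.10 averaged over the nuclei), Pgap2, which remodels the anchor (-0.28 ± 0.11), and the mannosyltransferase Pigm (0.19 ± 0.10). None of them passed, Pigh lay below the array median on all 11 arrays, and Pigm lay above it on 1. Pgap2 read 24 and 19 in the short-day bed nucleus and 38, 30 and 28 in the long-day bed nucleus.

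Other proteins that carry the same anchor were measured for 17 of 23 listed genes. In the bed nucleus 2 were higher and 15 lower in short days (median -0.19, against -0.01 over all probe sets), while the medial preoptic area had 10 higher and 7 lower (median 0.03). The range in the bed nucleus was -0.45 to 0.14, which does not reach the values of 1437502_x_at or 1448182_a_at. Bed nucleus medians of the other lists ran from -0.23 (choroid plexus markers) to 0.04 (oligodendrocyte markers), with neuron markers at -0.16. The 373 other probe sets as bright as 1437502_x_at had a median of -0.15 there, and the 10014 as bright as 1448182_a_at had 0.03. Neither set was matched in brightness to this list. Of the other lists, only the choroid plexus markers had a lower median. Efna3, an ephrin ligand, was at -0.45 in the bed nucleus, with 124 and 89 in short days and 150, 134 and 147 in long days. Thy1, a neuronal surface glycoprotein, was at -0.40 there and below the array median on all arrays. Bst2, the antiviral protein tetherin, was at -0.21 ± 0.10 in the average of the nuclei (adjusted p = 0.530, limma).

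**Figure D4:**
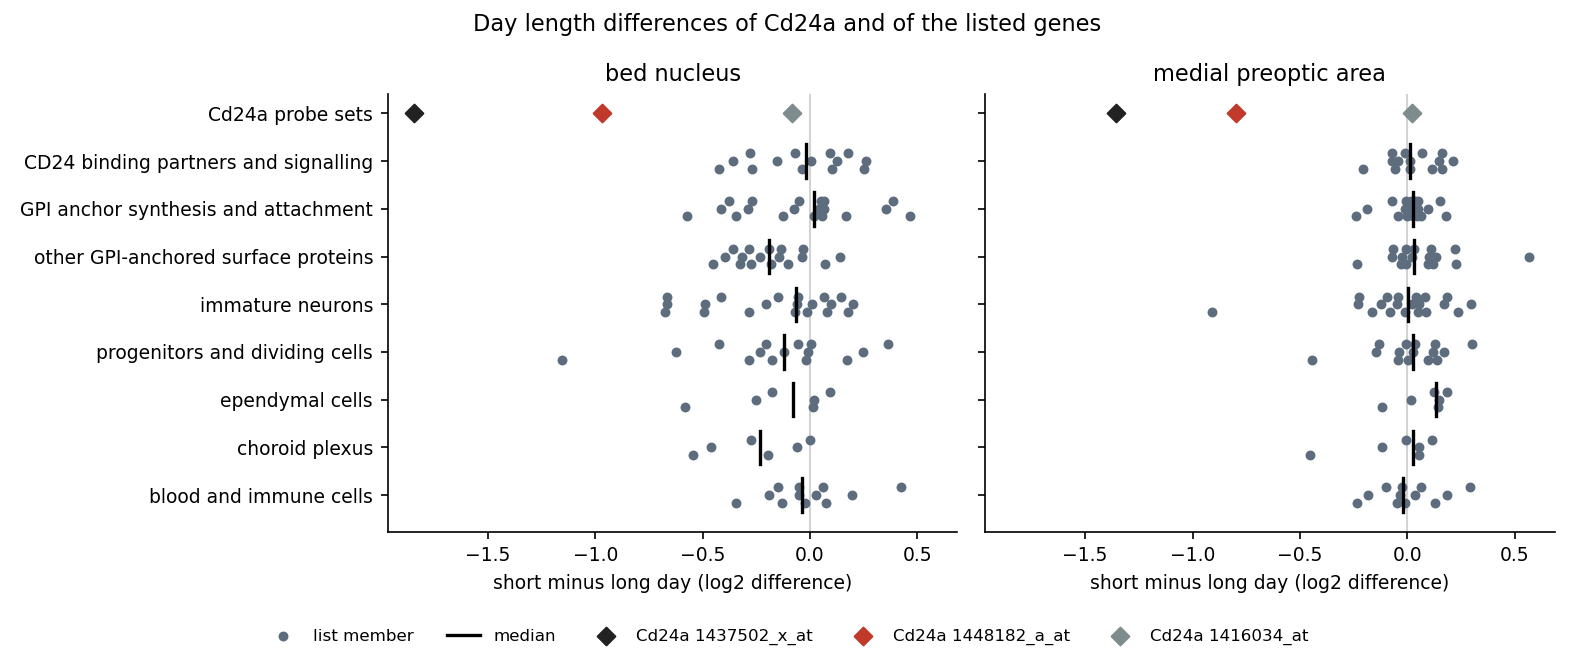
Short minus long day log2 differences (horizontal axis) of the Cd24a probe sets (diamonds) and of the members of 8 gene lists (points, with the median as a bar) in the bed nucleus and the medial preoptic area. The differences of 1437502_x_at lie outside the range of every list shown in both nuclei.

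The cell types known to carry CD24 were measured through their other markers. Immature neuron markers were measured for 20 of 20 genes, with 7 higher and 13 lower in the short-day bed nucleus (median -0.07) and 10 higher and 10 lower in the short-day medial preoptic area (median 0.01). Their summed intensity was 6477 to 6512 in short days and 6482 to 7546 in long days in the bed nucleus, and 6933 to 7490 in short days and 7101 to 7500 in long days in the medial preoptic area. Sox11, a transcription factor of newborn neurons, read 78 and 72 in short days and 107, 119 and 135 in long days in the bed nucleus (-0.68, adjusted p = 0.106, limma), and was at 0.17 in the medial preoptic area. Sox4, a related factor, was at -0.66 and -0.09 in the same nuclei, and Nrep, a neuronal regeneration protein, at -0.49 and -0.12. None of these passed. Not all members went this way. Dcx, above the array median on all 11 arrays, was at -0.01 in both nuclei. Meis2, a homeobox factor that striatal neurons also express, was at 0.08 in the bed nucleus and -0.91 in the medial preoptic area. St8sia2, which builds polysialic acid, was at 0.20 in the bed nucleus. Meis2 passed between the nuclei (0.84 higher in the bed nucleus, adjusted p = 0.0256, limma).

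Ependymal markers were measured for 6 of 13 genes, with 3 higher and 3 lower in the short-day bed nucleus and 5 higher and 1 lower in the short-day medial preoptic area. Their summed intensity was 152 to 158 in short days and 165 to 176 in long days in the bed nucleus, and 157 to 164 in short days and 145 to 156 in long days in the medial preoptic area. Foxj1, the defining factor of ciliated ependyma, was below the array median on all arrays. Rsph1, a radial spoke protein of cilia, was at -0.58 in the bed nucleus and 0.14 in the medial preoptic area and did not pass. Choroid plexus markers were measured for 6 of 10 genes, and all 6 were lower in the short-day bed nucleus (median -0.23), against 3 higher and 3 lower members in the other nucleus. Of these 6, 2 had a mean above the array median, and Slc4a5 (-0.002) and Kl (-0.06) hardly differed in the bed nucleus. Their sum was 136 to 142 in short days and 157 to 176 in long days in the bed nucleus, and 140 to 148 in short days and 138 to 150 in long days in the medial preoptic area.

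Markers of progenitors and dividing cells were measured for 15 of 17 genes, with 4 higher and 11 lower in the short-day bed nucleus and 9 higher and 6 lower in the short-day medial preoptic area. Their sum was 1392 to 1458 in short days and 1494 to 1788 in long days in the bed nucleus, and 1401 to 1511 in short days and 1234 to 1436 in long days in the medial preoptic area. Vim, the filament protein vimentin, was read by 3 probe sets, and the brightest fell in the short-day bed nucleus (-1.16, adjusted p = 0.0407, limma) and was at 0.03 in the medial preoptic area. It read 71 and 66 in short days and 128, 164 and 169 in long days in the bed nucleus, beside 0.0265% of all probe sets called lower there. The other Vim probe sets did not pass, at -0.76 (adjusted p = 0.127, limma) and -0.49 (adjusted p = 0.458, limma), and in the last the groups overlapped, at 135 and 67 in short days and 115, 155 and 134 in long days. Nes, the progenitor filament nestin, was at -0.18 and Ccnd2, a cyclin, at 0.36 in the bed nucleus, and neither passed. Vim was the single member of the 12 marker lists that passed between day lengths. Its 3 probe sets also passed between the nuclei, beside 0.464% of all probe sets called higher in the bed nucleus. There the brightest was 0.96 higher (adjusted p = 7.11e-04, limma), and the others 1.05 and 1.36 higher (adjusted p = 3.15e-04 and 4.08e-04, limma). Blood and immune markers were measured for 12 of 14 genes, with medians of -0.04 and -0.02 in the bed nucleus and medial preoptic area. Their sum was 200 to 209 in short days and 198 to 211 in long days in the bed nucleus, and 195 to 214 and 197 to 216 in the medial preoptic area in the same order. The sums weigh bright genes most. In the bed nucleus, Sox2 of the progenitor list had means of 791 in short and 917 in long days. Flot2 of the binding partners had means of 308 and 383 in the same order. In the bed nucleus the ependymal, choroid plexus and progenitor sums were lower on all short-day than on all long-day arrays. The same held there for vascular and meningeal markers (266 to 300 in short days, 321 to 354 in long days) and the other GPI-anchored proteins (706 to 757, 831 to 848). It also held for the GPI synthesis genes (750 to 766, 782 to 853), the CD24 binding partners and signalling genes (848 to 892, 893 to 1057) and 13.5% of single probe sets. The ependymal sum was higher on all short-day arrays of the medial preoptic area, and the choroid plexus and progenitor sums overlapped. Their part in the Cd24a difference was not tested.

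The punches were checked against markers of their regions. Striatal markers, which mark tissue next to the bed nucleus, were measured for 9 of 13 genes and 5 rose in the bed nucleus relative to the medial preoptic area (Ppp1r1b, Rgs9, Foxp1, Rasd2 and Pde10a), with none lower past the threshold, beside 0.464% of all probe sets called higher. Hypothalamic and preoptic markers were measured for 17 of 18 genes, of which 5 fell and 1 rose in the bed nucleus, beside 0.566% of all probe sets called lower and 0.464% called higher. The striatal sum was 3707 to 3911 in the short-day and 3077 to 3761 in the long-day bed nucleus. It was 1663 to 2231 in the short-day and 2133 to 2976 in the long-day medial preoptic area, where 9 of 9 members were lower in short days. Its part in the Cd24a difference was not tested.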

How the data were processed

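The authors deposited linear intensities per probe set, made with RMA version 3.4 per the submitters' processing notes. The sources used here give no other step. They are whole numbers with no value below 5 and a median of 19 on every array. Probes were designed for the house mouse, and how far mismatches to the oldfield mouse lower each signal is unknown. No detection call was used. Precision is limited by the number of arrays.

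The log2 of the intensities was fitted with 4 group means to all 11 arrays (lmFit and eBayes, limma 3.58.1, R 4.3.3), with Benjamini-Hochberg adjustment over 22626 probe sets; 64 controls were left out. Tests were two-sided. The labels name no animals, so p-values measure the spread between these samples, which may be technical. Gene names came from the platform annotation, which is old in part. The Cd24a probe sets and the gene lists were chosen with earlier results of these data known. Beside Cd24a, the rule named the 6 genes most like each probe set, list members that passed, and the 3 of each list with the smallest p over both nuclei. It allows some to be left out, which was done in the marker lists. St8sia2, Dcx and Sox2 were named after their values were seen. The fit was tested on simulated arrays. Alternatives changed the normalization, pseudocount, filter, prior, array weights, arrays and block.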

Additional observations from a re-analysis of the deposited data

How the results depend on the processing

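The day length differences of 1437502_x_at and 1448182_a_at kept their sign under every alternative run. Leaving out single arrays gave 1437502_x_at -2.12 to -1.69 in the bed nucleus, -1.66 to -1.18 in the medial preoptic area and -1.75 to -1.51 on average. For 1448182_a_at the ranges were -1.05 to -0.88, -0.96 to -0.59 and -0.96 to -0.78 in the same order. A bed nucleus group left with 1 short-day array was assumed to vary like the others. With a pseudocount of 8 the differences of 1448182_a_at were -0.61, -0.47 and -0.54. Those of 1416034_at ranged over both signs, from -0.31 to 0.14 (without short-day bed nucleus arrays 5 and 4), from -0.13 to 0.12 and from -0.14 to 0.08. The filter on dim probe sets left no value for 1448182_a_at and 1416034_at.

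The bed nucleus minus medial preoptic difference of 1437502_x_at was 0.41 to 0.70 when single arrays were left out (adjusted p 0.0721 to 0.362, limma), that of 1448182_a_at 0.15 to 0.33, and that of 1416034_at -0.17 to 0.057. The last was 0.053 at the upper end that rounding allows. The interaction was -0.76 to -0.18 for 1437502_x_at, -0.38 to -0.01 for 1448182_a_at and -0.33 to 0.12 for 1416034_at. As percentile ranks, which are compressed near the top, it was 0.34 points for 1437502_x_at. The bounds from rounding were added after seeing the data.

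The labels do not say whether sample numbers shared by the nuclei mark the same animal. The correlation of deviations from group means was between -0.03 and 0.07 over 5 pairs. With group means of 2 or 3 arrays, these values cannot decide whether the samples were paired. With the replicate block, which leaves out the unpaired medial preoptic array 6, the nucleus difference of 1416034_at was 0.019 and its interaction 0.043, both of opposite sign, and 1 listed gene passed between the nuclei in place of 2. The trended and robust prior also gave 1, and leaving out single arrays gave 0 to 3. It was 0 without long-day array 2 or short-day array 5 in the preoptic punches, or without long-day array 2, short-day array 4 or short-day array 5 of the bed nucleus, 1 without its long-day array 3, and 3 without long-day array 1 in the preoptic punches. The causes were not tested.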

Other observations

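Besides 1437502_x_at, 1 probe set lay below -1 on the log2 scale between short and long days in both nuclei, among 13 below it in the bed nucleus and 3 in the medial preoptic area. It belongs to Cycs, the electron carrier cytochrome c, and was picked out after its values were seen. It read 31 and 157 in short days and 133, 217 and 162 in long days in the bed nucleus, and 16, 253 and 181 in short days and 201, 229 and 205 in long days in the medial preoptic area. Its groups overlapped in both nuclei, and a single short-day array, numbered 4, was low in each.

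Of 1512 probe sets with the ending _x_at, the Cd24a probe set alone lay below -1 in either nucleus. The median day length difference of that class was -0.01 averaged over the nuclei.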
